A study of Mus musculus with 8 samples.

Results

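The 10 genes described here encode proteins through which endothelium senses blood flow and sets the tone of a vessel. They are the shear-stress factors *Klf2* and *Klf4*, the flow-responsive enzymes and receptors *Nos3* and *Thbd*, the endothelin genes *Edn1* and *Ece1*, and the adrenomedullin genes *Adm*, *Calcrl*, *Ramp2* and *Ramp3*. Each was taken by its symbol from the 28014 genes of a single-cell count table. Their levels were followed from arterial endothelium (aEC) to pre-hemogenic endothelium (pre-HE) and on to cells in endothelial-to-hematopoietic transition (EHT).

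Blood dragging along the vessel wall is known to raise *Klf2* and *Klf4* through a kinase cascade that ends on MEF2 factors at the *Klf2* promoter. KLF2 and KLF4 in turn raise *Nos3*, the endothelial nitric oxide synthase, and *Thbd*, thrombomodulin, and restrain *Edn1*, the precursor of the constrictor peptide endothelin, which the ECE1 protease trims to its active form. *Adm* encodes the dilator peptide adrenomedullin, whose receptor *Calcrl* works only beside a RAMP partner: RAMP2 or RAMP3 for adrenomedullin, RAMP1 for the related peptide CGRP. Flow and nitric oxide are known to favor the emergence of blood cells from the embryonic aorta.

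Mouse embryos of embryonic day 10.5 gave the cells, CD31+ and sorted from the aorta-gonad-mesonephros (AGM) region, and CITE-seq gave their RNA, in which each unique molecular identifier (UMI) stands for 1 captured molecule. WT libraries, WT 1 to WT 5, carry the labels C57BL/6 and WT, and the 3 Mf/f;Cre libraries carry the labels Meis1-flox/VE-Cre and Meis1-knockout. In the latter a Cre driven by the VE-cadherin promoter, active in endothelium and therefore inherited by the blood cells derived from it, removes a loxP-flanked exon of *Meis1*. Each library pooled the cells of 2 to 5 embryos of one genotype, with no other treatment, and p-values measure the spread between such pools. The cells of WT 5 have names that start with Mf in the count table, which the labels do not explain, and whether its embryos were floxed and without Cre is not given in the sources used here. The authors had assigned every cell to 1 of 10 clusters: aEC, pre-HE, EHT, vEC_1 to vEC_4 (other, mainly venous endothelium, summed as vEC below), EMP (erythro-myeloid progenitors), Myeloid and Megakaryocytes. WT pre-HE held 171 cells (39, 18, 11, 87 and 16 in WT 1 to WT 5), against 888 aEC and 326 EHT cells, and Mf/f;Cre pre-HE held 77 cells. These clusters were drawn from the same RNA counts, so a p between clusters says how alike the libraries were for cells that this RNA had already set apart.

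Totals ran from 20484881 to 79429129 UMIs per library. Median UMIs per cell were 26572 to 28553 in WT 1 to WT 4, but 12720.5 in WT 5 and 9611.5 to 14895 in Mf/f;Cre, so depth moved with genotype except in WT 5. Between 3 and 15 cell barcodes of a library recurred in another. *Meis1* itself was at 12.9 to 51.4 CPM in WT pre-HE and 9.57 to 53.1 in Mf/f;Cre pre-HE, and at 56.7 to 77.0 against 21.0 to 36.4 in EMP; tags at the 3′ end of a transcript check the loss of an internal exon only weakly. CPM (counts per 1e6 UMIs) was computed on the UMIs summed over the cells of one library and cluster. A list of 9 arterial markers, such as *Gja4*, *Gja5* and *Dll4*, summed to 680 to 971 CPM in WT aEC, 3888 to 4897 in pre-HE and 254 to 316 in vEC, so the arterial list was highest in pre-HE. *Runx1*, which defines hemogenic cells, averaged 7.06 CPM in pre-HE and 191 in EHT. The 6 smooth muscle markers summed to 14.2 to 25.3 CPM in aEC, 168 to 864 in WT pre-HE and 1114 to 2218 in Mf/f;Cre pre-HE, with *Acta2* at 202 and *Myh11* at 0 in WT pre-HE. The 7 mesenchyme markers summed to 0 to 3.78 CPM in WT aEC and to 12.9 to 45.4 in WT pre-HE. In WT pre-HE *Col3a1* averaged 16.1 CPM, against 1.10 in aEC, while *Pdgfrb* and *Postn* were at 0. The part of these marker lists in the values below was not tested. In a summed cluster, fewer cells that hold a transcript and less of it in each cell cannot be told apart, and shares of cells are therefore given too.

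The promoters of the 5 genes on which the results turn are shown first, because *Klf2* is the flow factor itself and *Edn1*, *Calcrl*, *Adm* and *Ramp3* moved most between aEC and pre-HE. Each run is the 250 bases before a start of transcription in the RefSeq promoter table on GRCm38.p6, 5′ to 3′ on the strand of the gene. That start is the outermost base of the gene for *Klf2*, *Edn1* and *Adm*, but lies 139 bases inside it for *Calcrl* and 27 bases inside it for *Ramp3*. They lie at chr8:72318812-72319061 (+) for *Klf2*, chr13:42301226-42301475 (+) for *Edn1*, chr2:84425267-84425516 (−) for *Calcrl*, chr7:110627407-110627656 (+) for *Adm* and chr11:6658283-6658532 (+) for *Ramp3*. Capitals mark CACCC, the core to which KLF factors are known to bind (GGGTG where it lies on the other strand), and the MEF2 box.
Klf2: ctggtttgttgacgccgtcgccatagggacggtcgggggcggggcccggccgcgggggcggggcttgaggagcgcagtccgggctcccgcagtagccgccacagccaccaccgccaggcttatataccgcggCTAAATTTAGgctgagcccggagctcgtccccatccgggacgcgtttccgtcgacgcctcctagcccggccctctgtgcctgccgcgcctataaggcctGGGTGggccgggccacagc
Edn1: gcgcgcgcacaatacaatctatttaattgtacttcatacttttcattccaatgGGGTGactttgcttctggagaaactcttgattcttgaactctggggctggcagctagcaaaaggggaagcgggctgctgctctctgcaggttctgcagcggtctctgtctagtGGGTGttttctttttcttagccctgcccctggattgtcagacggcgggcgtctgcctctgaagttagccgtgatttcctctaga
Calcrl: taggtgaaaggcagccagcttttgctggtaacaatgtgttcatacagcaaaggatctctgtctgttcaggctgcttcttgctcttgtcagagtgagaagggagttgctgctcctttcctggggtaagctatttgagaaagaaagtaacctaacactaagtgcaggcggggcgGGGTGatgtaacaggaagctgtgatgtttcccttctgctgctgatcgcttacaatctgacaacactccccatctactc
Adm: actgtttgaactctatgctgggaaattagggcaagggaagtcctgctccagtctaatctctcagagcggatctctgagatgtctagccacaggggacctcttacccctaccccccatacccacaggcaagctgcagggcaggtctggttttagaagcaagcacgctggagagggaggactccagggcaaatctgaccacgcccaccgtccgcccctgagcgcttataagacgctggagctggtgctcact
Ramp3: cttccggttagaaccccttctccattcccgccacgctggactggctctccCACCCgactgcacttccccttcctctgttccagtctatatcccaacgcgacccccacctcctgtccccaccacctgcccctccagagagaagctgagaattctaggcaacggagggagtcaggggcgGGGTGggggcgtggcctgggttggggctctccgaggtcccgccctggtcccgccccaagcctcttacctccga

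The *Klf2* run held a MEF2 box, CTAAATTTAG, 118 bases before the start and a KLF core 19 bases before it. The *Edn1* run held KLF cores 197 and 84 bases before the start, that of *Calcrl* 1 at 78 bases, and that of *Ramp3* 2 at 200 and 73 bases. None of the letters searched occurred in the *Adm* run. On both strands of all 32851 promoter windows of this length, 52% held CACCC and 3.2% held a MEF2 box, so a KLF core is common and a MEF2 box is not. Of the 10 members 7 had a promoter, with 10 start sites of which 4 belong to *Ece1*. TGACAG, bound by MEIS factors, occurred only at the fourth *Ece1* start (15.9% of all windows), and ACGTG, the core bound by hypoxia-inducible factors, at *Klf4* and the third *Ece1* start (16.6%). TGANTCA (6.75%) and GATAA (22.6%) occurred at no member. *Nos3*, *Thbd* and *Ramp2* were not searched. A match is a run of letters and not a site shown to be bound, and the printed matches did not overlap each other.

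The genes themselves lie at chr8:72319062-72321654 (*Klf2*), chr4:55527137-55532475 (*Klf4*), chr5:24364816-24384474 (*Nos3*), chr2:148404471-148408188 (*Thbd*), chr13:42301476-42307990 (*Edn1*), chr4:137862237-137965229 (*Ece1*), chr7:110627657-110629820 (*Adm*), chr2:84330626-84425405 (*Calcrl*), chr11:101246334-101248250 (*Ramp2*) and chr11:6658506-6677478 (*Ramp3*) on that build. *Nos3*, *Ece1*, *Adm* and *Ramp3* overlap other annotated genes (*Atg9b* and *Gm15587*, *Gm13012* and *Gm52683*, *Gm28863*, *Gm11978*), and the counting setting for strand is not given in the sources used here, so their counts carry that uncertainty.

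Most of the 10 members, which were chosen with earlier results of these data known, were highest in pre-HE. In WT, 8 of the 10 members had their highest mean level of all 10 clusters there, and *Adm* and *Ramp3* had theirs in aEC. The share of all genes with their highest mean in pre-HE was not counted. From aEC to pre-HE 8 members were higher and 2 lower, all 10 past an edgeR adjusted p of 0.1, in a comparison in which 42.1% of the 8143 genes tested were called. From pre-HE to EHT 8 of the 8 members tested were lower, where 61.6% of 8467 genes were called, 31.6% higher and 30% lower. *Adm* and *Ramp3* had too few UMIs in pre-HE and EHT to be tested there. General endothelial markers moved along: 8 of them, such as *Cdh5* and *Tek*, summed to 2928 to 3455 CPM in WT aEC, 4319 to 5272 in pre-HE and 695 to 1196 in EHT, with no overlap. Each of these 8 markers had a higher WT mean in pre-HE than in aEC, EHT or the vEC sum. Their part in the members' values was not tested.

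**Figure D1:**
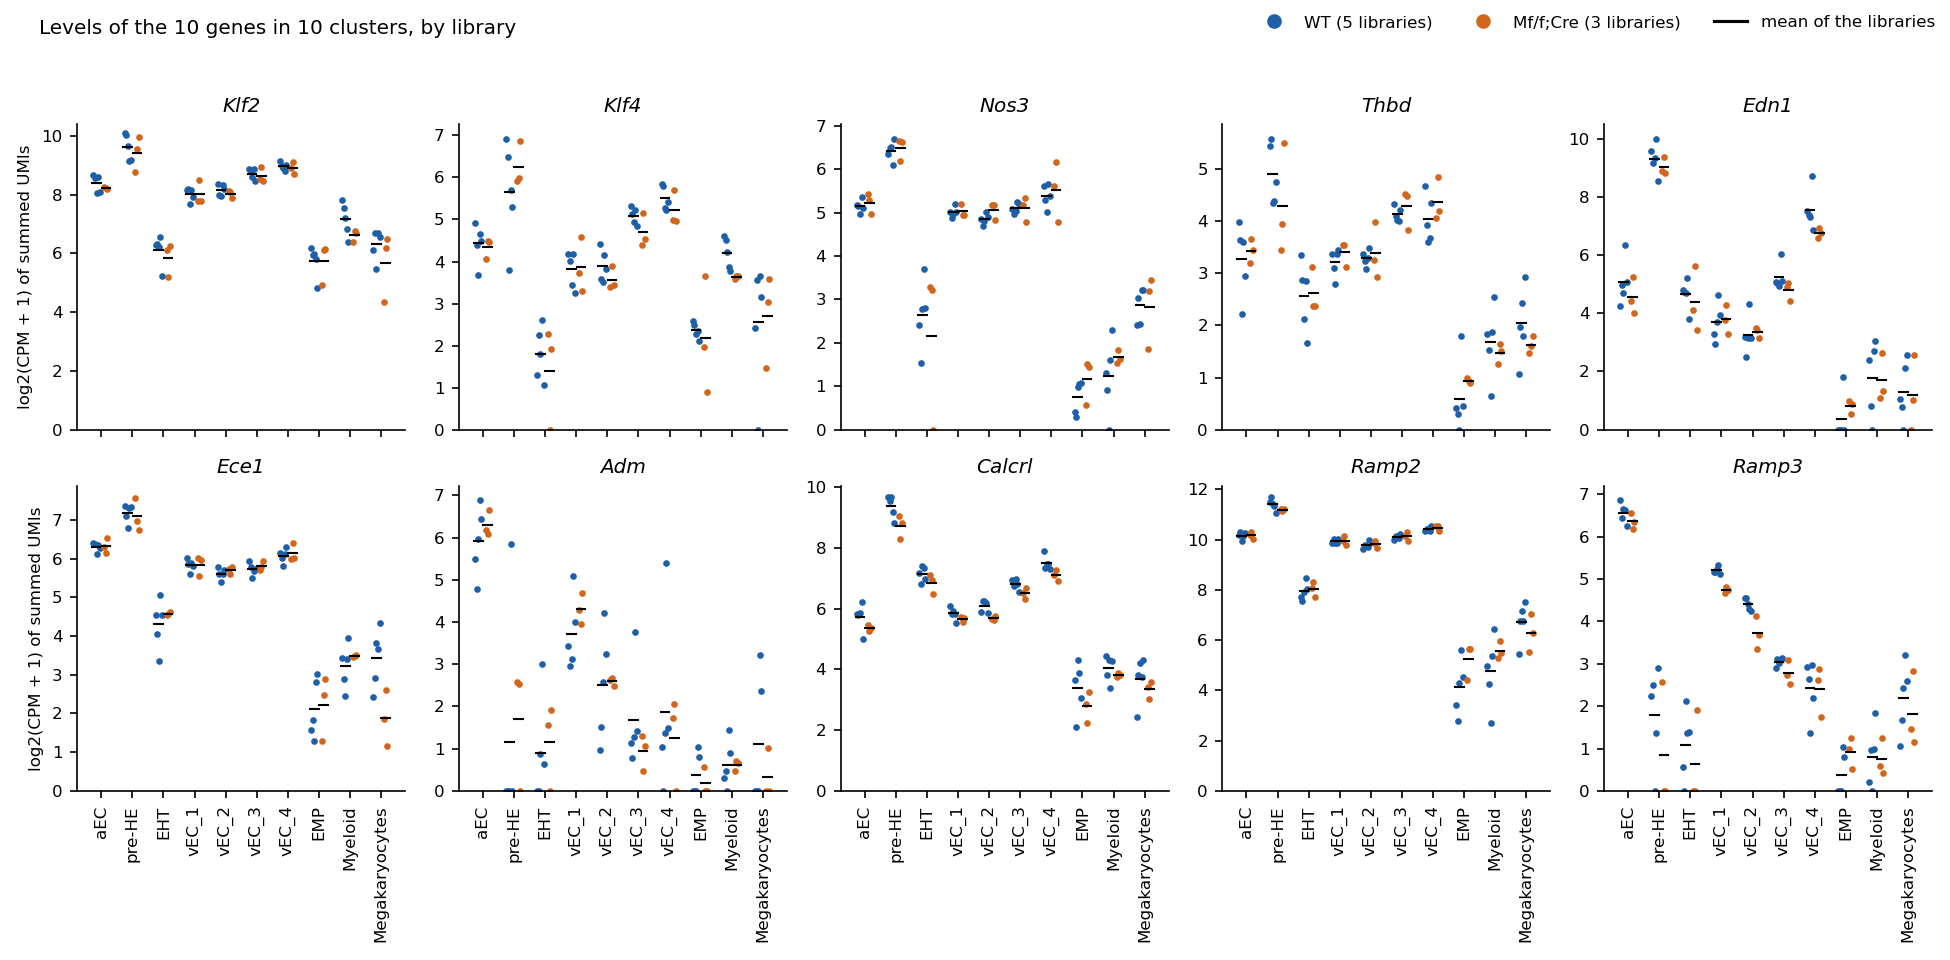
Levels of the 10 genes in each cluster, as log2(CPM + 1) of UMIs summed per library and cluster, with 1 point per library (blue, 5 WT; orange, 3 Mf/f;Cre) and a bar at the mean. Pre-HE holds the highest WT mean for every gene but *Adm* and *Ramp3*, whose means are highest in aEC, and WT 4 is the single WT point above 0 for *Adm* in pre-HE.

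*Klf2*, the principal factor of the flow response, was at 409, 377, 262, 382 and 273 CPM in the aEC of WT 1 to WT 5. In pre-HE it was at 1095, 1046, 797, 561 and 579 CPM in the same order. In EHT it was at 77.1, 78.9, 72.7, 92.3 and 36.4 CPM. Every pre-HE library lay above every aEC library, and every EHT library below both. The log2 change to pre-HE was 1.10 ± 0.10 (SE, edgeR adjusted p = 6.53e-12), and that from pre-HE to EHT was −3.42 ± 0.13 (adjusted p = 1.89e-20). Across all clusters vEC_4 came next after pre-HE, at 498 ± 41.9 CPM (SD, n = 5), and the ranges of these 2 clusters did not overlap. Below vEC_4 every neighbour in the order overlapped the next, down to EHT (71.5 CPM) and EMP (55.2 CPM) at the end.

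*Klf4*, the second shear-stress factor, was lower throughout and varied more. WT pre-HE libraries held 120, 88.7, 12.97, 51.4 and 38.6 CPM, where WT 3, at 12.97, lay inside the aEC range of 11.9 to 29.3. The level was nevertheless higher in pre-HE than in the aEC of the same library in 5 of 5 libraries, by 1.44 ± 0.20 on the log2 scale (edgeR adjusted p = 1.05e-07). vEC_4 (45.4 ± 9.44 CPM, SD, n = 5) was not separated from pre-HE (62.3 ± 42.2), which was higher in 3 of 5 libraries. EHT held 1.09 to 5.08 CPM, the lowest mean of the 10 clusters, and the log2 change from pre-HE was −4.36 ± 0.33 (adjusted p = 4.58e-13).

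*Nos3*, which makes nitric oxide in endothelium, ran from 30.2 to 39.8 CPM in aEC and from 67.2 to 103 in pre-HE, with no overlap. Its log2 change was 1.06 ± 0.16 (edgeR adjusted p = 1.08e-06). EHT libraries held 1.88 to 12.1 CPM, a log2 change of −3.59 ± 0.28 from pre-HE (adjusted p = 6e-13). *Thbd*, the cofactor on the vessel wall that turns thrombin toward anticoagulation, was scarce at 3.66 to 14.8 CPM in aEC. It rose to 19.5 to 46.7 CPM in pre-HE, by 1.33 ± 0.27 (adjusted p = 8.47e-05), and fell by 2.27 on the log2 scale to 2.17 to 9.16 CPM in EHT (SE 0.33, adjusted p = 5.46e-07). The *Thbd* ranges of aEC and EHT overlapped, though EHT was lower in 5 of 5 libraries (log2 change −0.95 ± 0.22, adjusted p = 0.00117).

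*Edn1* showed the largest rise of the 10. In aEC it was at 18.3, 30.2, 24.7, 79.8 and 32.8 CPM, with WT 4 apart from the other 4 libraries. In pre-HE it was at 770.4, 569.5, 642, 1021 and 373 CPM, and in EHT it was back at 27.0, 25.7, 25.1, 36.0 and 13.03 CPM. Those EHT levels rest on few cells, 10 of 64, 4 of 45, 4 of 31, 12 of 68 and 9 of 118, and 1 cell held between 29.2% and 70.7% of a library's *Edn1* UMIs. The log2 changes were 4.13 ± 0.15 from aEC to pre-HE (edgeR adjusted p = 6e-25) and −4.71 ± 0.13 from pre-HE to EHT (adjusted p = 5.62e-25). By size the first ranked 66th of the 8143 genes tested. Of the other clusters vEC_4 came nearest, at 183, 166, 157, 418 and 116 CPM, where WT 4 was again highest, and pre-HE lay above it within each of the 5 libraries. All other clusters had means of 38.6 CPM or less. The difference between EHT and aEC, −0.66 ± 0.21 (adjusted p = 0.0116), was lower in 3 of 5 libraries only and was not called without WT 4 (−0.34, adjusted p = 0.211).

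*Ece1*, the protease that activates endothelin, followed *Edn1* over a smaller range. It was at 68.6 to 82.9 CPM in aEC, 110.2 to 164 in pre-HE and 9.19 to 32.1 in EHT, and none of these ranges overlapped. The log2 changes were 0.83 ± 0.13 (edgeR adjusted p = 1.53e-06) and −2.74 ± 0.17 (adjusted p = 4.31e-15). Unlike *Edn1*, its second cluster in the order was aEC.

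**Figure D2:**
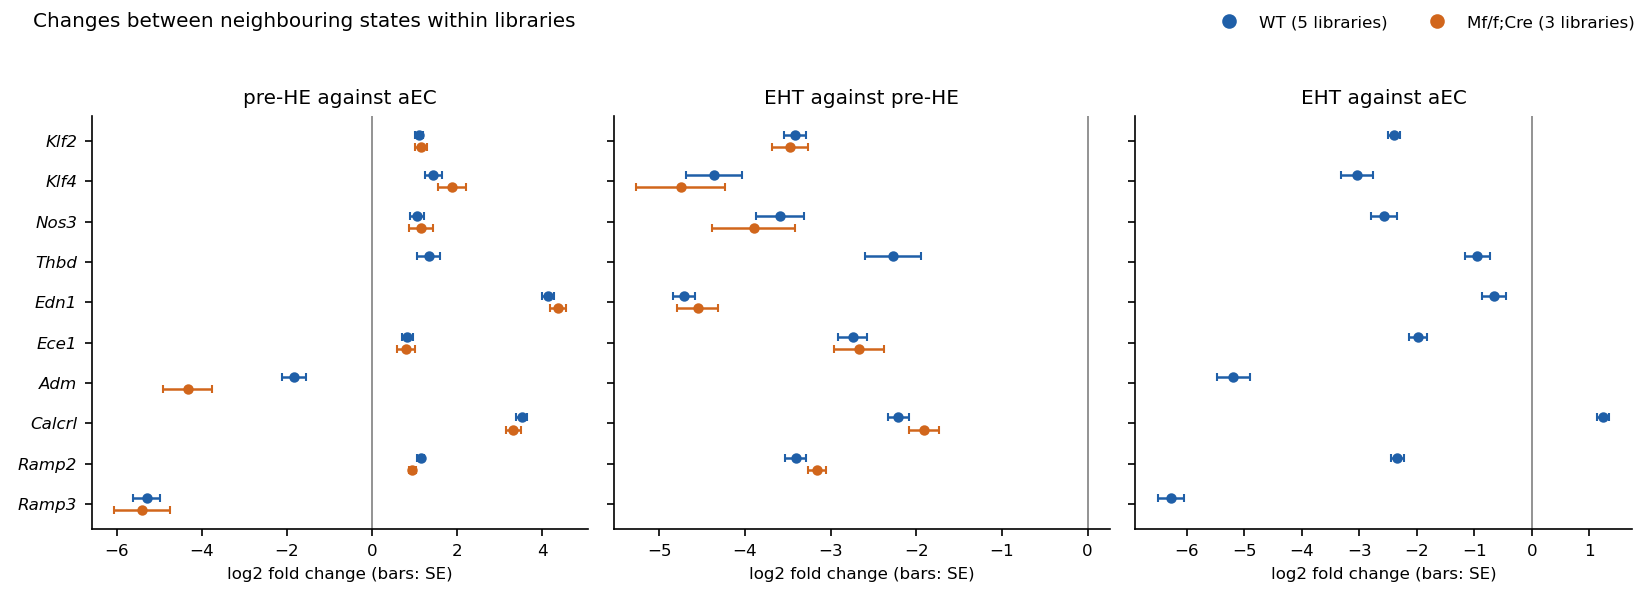
Log2 fold changes of the members between clusters of the same library, fitted with edgeR, for 5 WT (blue) and 3 Mf/f;Cre (orange) libraries, with bars of 1 SE. Only *Adm* and *Ramp3* lie left of 0 from aEC to pre-HE, all fitted members lie left of 0 from pre-HE to EHT, and *Calcrl* alone lies right of 0 in EHT against aEC, a comparison fitted in WT only; genes without a point were not tested.

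The adrenomedullin genes parted, with *Calcrl* and *Ramp2* higher in pre-HE than in aEC, and the ligand *Adm* and the receptor part *Ramp3* lower. *Calcrl*, the receptor, was at 56.4, 54.0, 56.7, 73.3 and 31.0 CPM in the aEC of WT 1 to WT 5 and at 816, 756, 810.4, 582 and 457 CPM in pre-HE. EHT cells kept part of this rise, at 145, 112, 169, 160 and 126 CPM. None of the 3 ranges overlapped, and EHT was between the other 2 in every library. The log2 change was 3.51 ± 0.12 from aEC to pre-HE (edgeR adjusted p = 1.9e-26), −2.21 ± 0.12 from pre-HE to EHT (adjusted p = 3.16e-17), and 1.24 ± 0.11 from aEC to EHT (adjusted p = 6.08e-08). *Calcrl* was the only member above its aEC level in EHT, whereas the other 9 were lower, in a comparison in which 71.5% of 9532 genes were called, 35.8% higher and 35.7% lower. The order of clusters ran from pre-HE over vEC_4 (182 CPM), EHT (142 CPM) and vEC_3 (112 CPM) to aEC, which was seventh at 54.3 CPM.

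*Ramp2*, the partner that makes *Calcrl* an adrenomedullin receptor, was at 976 to 1247 CPM in aEC, 2150 to 3310 in pre-HE and 185 to 357 in EHT. The log2 changes were 1.14 ± 0.08 (edgeR adjusted p = 1.76e-16) and −3.41 ± 0.12 (adjusted p = 1.32e-21). *Ramp2* therefore fell below its aEC level in EHT (log2 change −2.34 ± 0.11, adjusted p = 2.71e-11) while *Calcrl* stayed above it.

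*Ramp3*, the alternative partner, did the reverse of *Ramp2* in pre-HE. It was at 115, 85.1, 98.8, 98.6 and 75.5 CPM in aEC, whereas the pre-HE of WT 1 to WT 5 held 2, 1, 0, 2 and 1 UMIs. The EHT cells held 1, 0, 4, 4 and 3 UMIs. Pooled over WT, aEC was 37.3 times pre-HE (95% interval 17.1 to 102) and 74 times EHT (42.3 to 144), where intervals cover counting error only. The fitted log2 change to pre-HE was −5.29 ± 0.32 (edgeR adjusted p = 6.95e-18), the 9th lowest of 8143 genes. Among the endothelial clusters its levels were graded, at 94.6 CPM in aEC, 35.8 in vEC_1, 20.3 in vEC_2 and 7.30 in vEC_3 with no overlap between neighbours, while vEC_4 (4.79 CPM) overlapped vEC_3. *Ramp1*, the partner for CGRP and not a member, had 0 UMIs in WT pre-HE, 9.19 to 17.5 CPM in EHT and 51.6 to 72.4 in Myeloid cells, and was highest in EMP (63.4 to 90.8).

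*Adm*, the ligand, was at 44.1, 26.7, 61.3, 117 and 85.4 CPM in aEC. In pre-HE 4 of the 5 WT libraries held 0 UMIs and WT 4 held 71, in 21 of its 87 cells and at most 10 in any cell. The fitted log2 change of −1.83 ± 0.28 (edgeR adjusted p = 1.1e-06) joins libraries that differ in kind. Within WT 4 aEC was 2.09 times pre-HE (95% interval 1.63 to 2.7). In the other 4 libraries, 0 UMIs of 1066403 in pre-HE against 488 in aEC put aEC at least 17.5 times higher, with 3 counts over the 4 libraries taken as the floor. EHT held 0, 0, 0.836, 7.04 and 0.543 CPM, again highest in WT 4, and aEC was 35.6 times EHT over WT (22.9 to 58.4) and 165 times without WT 4 (45.5 to 1.37e+03). The same library held 258 of the 267 *Adm* UMIs of vEC_4.

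WT 4 stood apart in more than *Adm*. It is the only library for which the paper lists no antibody reads, and its cells are named by barcode alone in the count table. *Adm* is known to be induced by low oxygen, and of 9 other hypoxia-induced genes WT 4 was the highest WT library for 9 in vEC, 8 in aEC, 6 in EHT and 4 in pre-HE. *Bnip3*, for example, was at 73.2 CPM in the vEC of WT 4 and at 13.7 to 20.9 in the other 4. In pre-HE it was at 65.6 against 6.44 to 25.9. The sum of the 9 genes in pre-HE was highest in WT 5, however, at 869 CPM, with WT 4 at 818. *Edn1* was highest in WT 4 in aEC, pre-HE, EHT and vEC. Hemoglobin and other erythroid markers summed to 2080 CPM in the Myeloid cells of WT 4 and to at most 50.1 in the other WT libraries. Whether these values bear on *Adm* and *Edn1* was not tested.

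**Figure D3:**
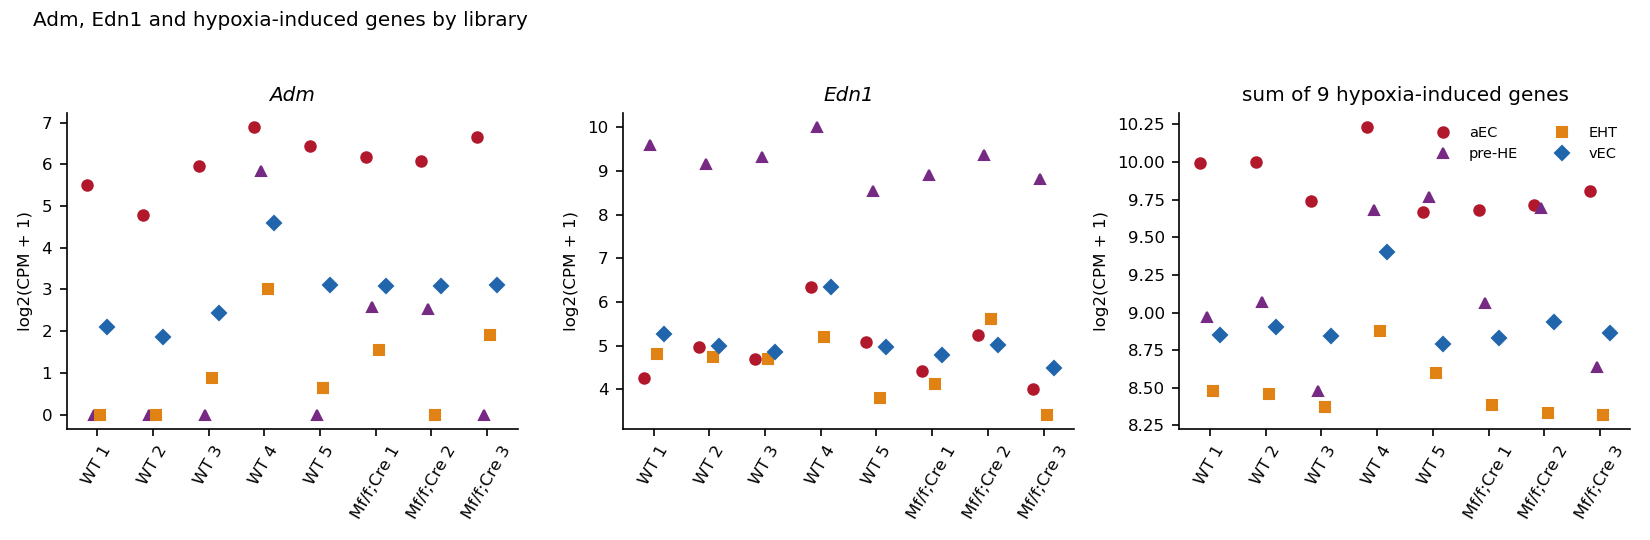
*Adm*, *Edn1* and the sum of 9 hypoxia-induced genes in each of the 8 libraries, as log2(CPM + 1) of summed UMIs, with a marker per cluster (aEC, pre-HE, EHT and vEC) and different axis ranges. WT 4 is the highest WT library for *Adm* in all 4 clusters, and for *Edn1* its aEC and vEC markers coincide at 79.8 CPM.

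Shares of cells showed whether a level came from many cells or few. Each cell was thinned to 5000 UMIs, since pre-HE cells were shallower than aEC (8851.5 to 15263 against 9705 to 21911 median UMIs in WT libraries), and 2 aEC, 0 pre-HE and 1 EHT cell of WT were left out as shallower. The share with *Calcrl* was 21.5% ± 5.62 in WT aEC (SD over 5 libraries), 93.9% ± 6.30 in pre-HE and 46.3% ± 7.31 in EHT. In Myeloid cells, which should hold little of it, the share was 6.68% ± 4.99. *Edn1* went from 9.69% ± 5.33 to 76.6% ± 11.8 and back to 8.13% ± 3.24, against 1.16% in Myeloid cells. For *Klf2* the shares were 45.5% ± 2.99 in aEC, 60.8% ± 12.5 in pre-HE and 15.7% ± 4.52 in EHT, so its level rose more than its share did. The shares of *Klf2*, *Klf4*, *Nos3*, *Edn1*, *Ece1* and *Calcrl* were higher in pre-HE in 5 of 5 libraries, and those of *Adm* and *Ramp3* were lower in 5 of 5. For *Klf2* this was so neither at 3000 UMIs nor before thinning, and for *Klf4* not at 3000 UMIs. *Nos3*, *Edn1*, *Ece1* and *Calcrl* were higher in 5 of 5 at every depth. Before thinning, the *Calcrl* shares were 53.7%, 97.4% and 88.3% in aEC, pre-HE and EHT.

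Receptor parts were then counted in the same cell. *Ramp2* by itself was found in 99.3% of WT aEC and 100% of pre-HE cells, so the share of its pair with *Calcrl* there could only follow that of *Calcrl*. *Calcrl* with *Ramp2* occurred at a share of 21.4% in WT aEC and 93.9% in pre-HE, and in every pre-HE cell with *Calcrl* (157 of 171 cells, pooled). Whether the pair occurred more often than the single shares would give was not tested. In EHT the pair was found in 25.3% ± 7.62 of cells, *Calcrl* in 46.3% and *Ramp2* in 46.5% ± 11.2. *Calcrl* with *Ramp3* had a share of 7.66% in aEC, and the pair was seen in 1 of 171 pre-HE cells (0 to 2.56% by library) and 0 of 325 EHT cells. A count of 0 of 325 allows up to 0.923% of cells with a UMI of both at this depth, by counting error alone, which does not limit the cells that express them. Before thinning the pair was seen in 5 of 171 pre-HE and 6 of 326 EHT cells. *Klf2* and *Klf4* were found together in 31 of 171 pre-HE cells, out of 34 with *Klf4*. *Edn1* with *Ece1* was found in 45.0% ± 11.1 of pre-HE and 4.53% of aEC cells. *Ece1* by itself was found in 57.6% and 28.8%, and *Edn1* in 76.6% and 9.69%. Whether this pair, or that of *Klf2* and *Klf4*, occurred more often than the single shares would give was not tested.

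**Figure D4:**
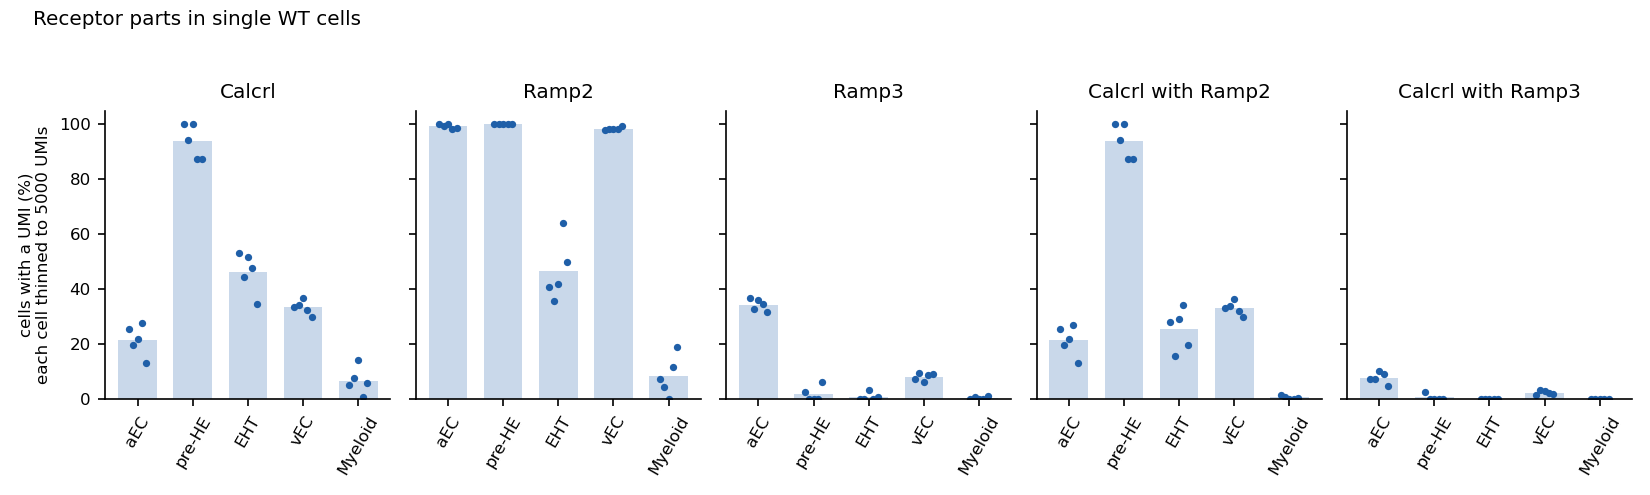
Share of WT cells with a UMI of *Calcrl*, *Ramp2*, *Ramp3* or 2 of them, in percent, each cell thinned to 5000 UMIs, with 1 point per library and a bar at the mean of 5. The bars for *Calcrl* and for *Calcrl* with *Ramp2* are near 94% in pre-HE, where *Ramp2* is at 100%, while *Ramp3* is at 34.3% in aEC and 1.76% in pre-HE.

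*Adm* and *Ramp3* were higher in aEC than in the 4 vEC clusters summed, and *Klf2* and *Klf4* were not called. Between aEC and vEC 6 of 10 members were called, in a comparison in which 59.7% of 11345 genes were, 29.2% higher and 30.5% lower. *Klf2* (341 ± 68.1 CPM in aEC and 342 ± 37.9 in vEC, SD, n = 5), *Klf4*, *Thbd* and *Edn1* were not called, with log2 differences of 0.03, −0.04, −0.13 and −0.14 and SEs of 0.05, 0.09, 0.14 and 0.10. For *Klf2* the sum joins vEC clusters with means from 261 CPM (vEC_1) to 498 (vEC_4), and for *Klf4* from 13.6 to 45.4. *Klf2* was called higher in aEC without WT 5 (0.10, edgeR adjusted p = 0.0892). *Edn1* was called lower in aEC when cells were thinned to 5000 UMIs (−0.40, adjusted p = 0.00659) and with no filter on low counts (−0.17, adjusted p = 0.0949). *Adm* (3.08 ± 0.16, SE, edgeR adjusted p = 2.64e-14) and *Ramp3* (2.35 ± 0.08, adjusted p = 6.16e-18) were higher in aEC, as was *Ece1* (0.57 ± 0.06, adjusted p = 1.47e-08). *Calcrl* was lower in aEC, by −0.66 ± 0.09 (adjusted p = 4.77e-07). *Ramp2* (0.21 ± 0.03, adjusted p = 6.77e-06) and *Nos3* (0.15 ± 0.07, adjusted p = 0.0849) differed little, and neither was called without the library block (adjusted p = 0.114 and 0.206). The *Nos3* call was also lost without WT 1 (adjusted p = 0.145), WT 2 (0.248) or WT 4 (0.149).

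The steps were then read in the 3 Mf/f;Cre libraries, which are other embryos. All 9 members tested were called from aEC to pre-HE, 7 higher and 2 lower, against 21.8% of 7268 genes. *Edn1* rose by 4.36 ± 0.19 (SE, edgeR adjusted p = 1.58e-17), from 15.2 to 37.1 CPM in aEC to 475, 656 and 451 CPM in pre-HE of Mf/f;Cre 1 to 3. *Calcrl* rose by 3.32 ± 0.18 (adjusted p = 5.73e-15), to 535, 316 and 451 CPM. *Klf2* rose by 1.15 ± 0.15 (adjusted p = 8.98e-07), to 436, 756 and 990.2 CPM. *Klf4* (1.87 ± 0.33), *Nos3* (1.15 ± 0.28) and *Ramp2* (0.95 ± 0.09) rose too, with adjusted p of 8.28e-05, 0.00315 and 5.89e-10. *Ece1* rose by 0.80 ± 0.22 (adjusted p = 0.0118), but not past the threshold without Mf/f;Cre 1 (0.51, adjusted p = 0.363). *Adm* had 1, 1 and 0 UMIs in pre-HE against 66.3 to 99.8 CPM in aEC, so that aEC was 20.5 times higher (95% counting interval 5.63 to 169), and *Ramp3* had 1 UMI in all. *Thbd*, at 9.90, 14.4 and 44.2 CPM in pre-HE, was not tested. From pre-HE to EHT 7 of 7 members tested were lower, by −1.91 (*Calcrl*) to −4.75 (*Klf4*), where 50.2% of 4910 genes were called, 26% higher and 24.1% lower.

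The difference of the aEC to pre-HE step between genotypes was called for 0 of the 10 members by edgeR and for 5 of 9489 genes (0.0527%). The nearest was *Adm*, at −2.56 ± 0.91 (unadjusted p = 0.00593, adjusted p = 0.879), the only member with an unadjusted p under 0.05, and its sign turned without WT 4 (4.51). For *Klf2* the difference was 0.02 ± 0.17, for *Edn1* 0.20 ± 0.24 and for *Calcrl* −0.21 ± 0.21.

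Within a cluster, Mf/f;Cre and WT were compared over 3 against 5 libraries. By edgeR 0 members were called in aEC, pre-HE, EHT, vEC or Myeloid cells, where 0%, 0.489%, 0.127%, 0.0164% and 3.26% of all genes tested were called. At an unadjusted p under 0.05 there were 0, 1, 0, 2 and 1 members. DESeq2 called 1 member, *Ramp3* in vEC (−0.44, adjusted p = 0.0376), where edgeR gave −0.44 ± 0.10 (adjusted p = 0.175). *Ramp3* was at 18.4, 19.4, 19.4, 19.9 and 17.95 CPM in the vEC of WT 1 to WT 5 and at 14.3, 15.3 and 11.8 in Mf/f;Cre 1 to 3, with no overlap, and WT 5 lay with the other WT libraries. *Calcrl* in vEC was at 102, 88.5, 93.2, 90.8 and 76.5 CPM against 72.1, 66.8 and 75.1 (log2 change −0.30 ± 0.09, edgeR adjusted p = 0.209). Here WT 5, the WT library as shallow as Mf/f;Cre, was the WT library nearest to them.

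The same held for *Calcrl* elsewhere. In pre-HE WT 5 was lowest of the WT libraries at 457 CPM, between the 316 to 535 of Mf/f;Cre (log2 change −0.61 ± 0.23, edgeR adjusted p = 0.488). In aEC WT 5, at 31.0 CPM, was below the 37.9 to 42.8 of Mf/f;Cre (−0.43 ± 0.21, adjusted p = 0.496). Without WT 5 *Calcrl* was called lower in Mf/f;Cre in aEC (−0.57, adjusted p = 0.0605), pre-HE (−0.72, adjusted p = 0.0588) and vEC (−0.34, adjusted p = 0.0301). With depth per cell as a covariate the change turned to 0.34 in aEC and 0.05 in pre-HE, neither called. In Myeloid cells *Klf2* was at 226, 187, 147, 112 and 82.0 CPM in WT against 82.9, 107 and 102 (−0.57 ± 0.26, adjusted p = 0.339). *Klf4* was at 23.3, 21.7, 17.9, 13.7 and 12.7 against 11.1, 11.6 and 11.6 (−0.59 ± 0.20, adjusted p = 0.188). Both were called without WT 5, at −0.72 and −0.69. The 15 immediate early genes, which rise within minutes of stress or tissue dissociation, moved the same way there, with 795 CPM in WT 5, up to 2269 in the other WT libraries and 837 to 1013 in Mf/f;Cre. Their part in the *Klf2* and *Klf4* values was not tested.

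**Figure D5:**
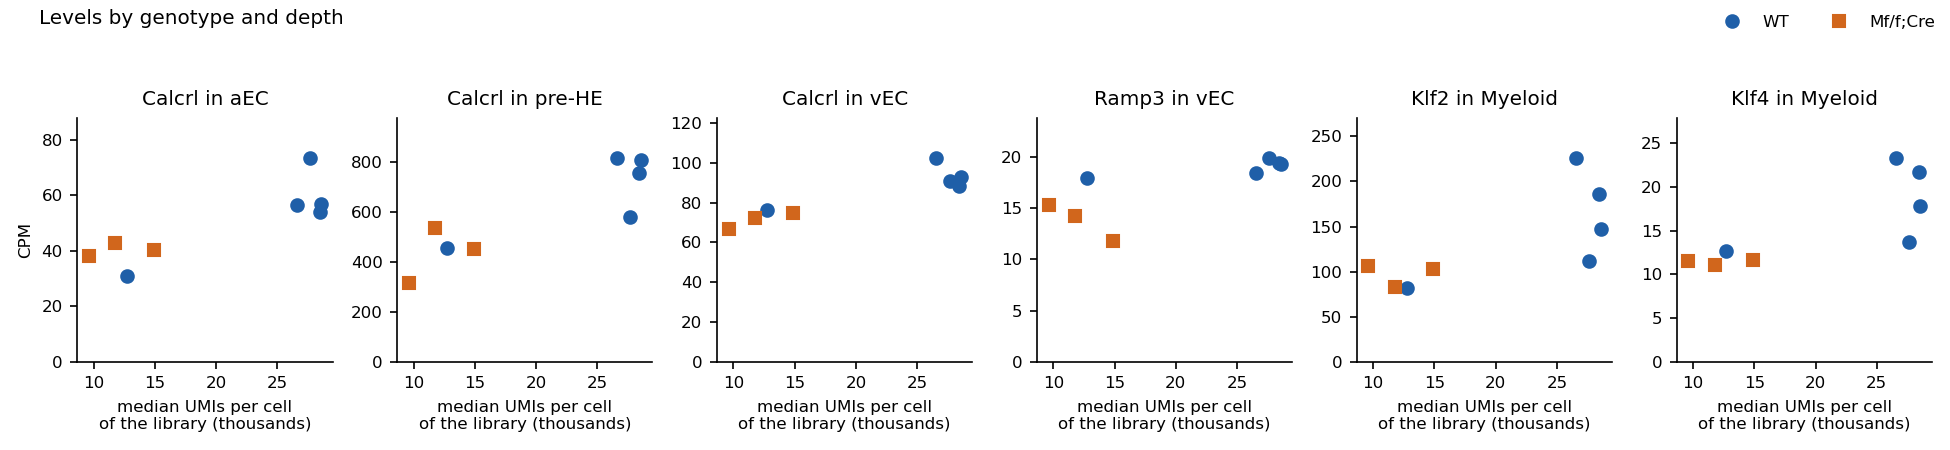
Level in CPM of *Calcrl*, *Ramp3*, *Klf2* and *Klf4* in named clusters against the median UMIs per cell of the library (axis in units of 1000), with 1 point per library (blue circles, 5 WT; orange squares, 3 Mf/f;Cre) and axes from 0 for the level. WT 5, the blue circle at 12720.5 UMIs, lies near the Mf/f;Cre libraries in every panel but that of *Ramp3* in vEC.

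Other genes of the same pathways gave the setting, each list named by its count of genes tested. From WT aEC to pre-HE, of 18 flow sensors and genes upstream of KLF2, 7 were higher and 2 lower (median log2 change 0.25, against 0.01 over all genes), so 9 of 18 were called where 42.1% of all genes were, 21.1% in each direction. *Cdh5*, VE-cadherin of the junctional flow sensor, rose by 1.51 ± 0.09 (SE, edgeR adjusted p = 8.38e-19) and *Heg1*, a receptor that restrains *Klf2*, by 1.07 ± 0.16 (adjusted p = 5.35e-07). The 2 that fell were *Mef2c* (−0.95 ± 0.11) and *Mef2a* (−0.87 ± 0.12), factors that act on the *Klf2* promoter. Of 7 genes known to depend on KLF2 or KLF4, in a direction that the list does not give, 5 were higher and 1 lower (median 0.40). *Txnip*, a redox regulator, rose by 1.59 ± 0.13 and *Slc9a3r2*, a scaffold protein, by 0.99 ± 0.12. The 11 immediate early genes tested gave 6 higher and 1 lower (median 0.38), with *Btg2* at 2.22 ± 0.14. All 15 genes of that list summed to 742 to 1036 CPM in aEC and 837 to 1600 in pre-HE. *Klf2* and *Klf4* are themselves induced in the manner of such genes, and the part of that list in their rise was not tested.

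In the same comparison, with 21.1% of all genes called in each direction, the nitric oxide genes split, with 2 higher and 4 lower of 8 (median −0.02). *Cav1*, which holds NOS3 inactive at the membrane, rose by 1.28 ± 0.16 (SE, edgeR adjusted p = 2.01e-08). *Nostrin*, which carries NOS3 away from the membrane, fell by 4.16 on the log2 scale (SE 0.33, adjusted p = 5.77e-14). It had 1, 0, 0, 6 and 1 UMIs in the pre-HE of WT 1 to WT 5. *Gch1*, which makes the cofactor of NOS3, had a change of −0.95 ± 0.28. Of 3 endothelin genes 2 rose: the proprotein convertases *Pcsk5* (5.91 ± 0.25, adjusted p = 6.56e-23) and *Furin* (1.18 ± 0.23), the latter known to cut the endothelin precursor. *Ece2* was lower (−0.73 ± 0.25). Of 5 adrenomedullin and CGRP genes 3 rose, among them *Pam*, which amidates adrenomedullin to its active form (1.81 ± 0.16, adjusted p = 2.16e-12), and *Adcy4*, an adenylate cyclase downstream of the receptor (1.39 ± 0.19). Of 5 other vasoactive genes *Npr3*, the natriuretic peptide clearance receptor (3.54 ± 0.15), and *Ptgis*, prostacyclin synthase (1.61 ± 0.14), rose. *Aplnr* (−5.14 ± 0.33) and its ligand *Apln* (−4.92 ± 0.40) fell, in the direction of *Adm* and *Ramp3*. These 2 changes rest on few counts: the pre-HE of WT 1 to WT 5 held 0, 0, 0, 3 and 9 *Aplnr* UMIs and 0, 0, 0, 4 and 0 *Apln* UMIs. Hypoxia-induced genes gave 1 higher and 6 lower of 8 (median −0.74), with *Slc2a1* at −1.01 ± 0.16.

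From pre-HE to EHT more genes of the flow, KLF-dependent and immediate early lists were lower than higher. In this step 61.6% of all genes were called, 31.6% higher and 30% lower. Immediate early genes gave 1 higher and 9 lower of 12. Flow sensors gave 1 higher and 11 lower of 17 (median −0.85, against 0.04 over all genes), with *Kdr* at −3.27 ± 0.17 (SE, edgeR adjusted p = 2.48e-17) and the exception *Mef2c* at 1.48 ± 0.12. KLF-dependent genes gave 0 higher and 7 lower of 7 (median −2.30), such as *S1pr1*, the sphingosine phosphate receptor, at −2.30 ± 0.17. *Cav1* (−5.28 ± 0.34), *Pcsk5* (−4.93 ± 0.28), *Adcy4* (−4.85 ± 0.36) and *Npr3* (−5.88 ± 0.25) reversed their rise. Nitric oxide genes gave 3 higher and 3 lower of 7, with *Gucy1a3*, a subunit of the nitric oxide receptor, among those higher (5.33 ± 0.68, adjusted p = 4.71e-08). *Ptgs1*, the platelet cyclooxygenase, rose by 4.27 ± 0.35. Both started from few counts: the pre-HE of WT 1 to WT 5 held 0, 0, 1, 0 and 0 *Gucy1a3* UMIs and 5, 0, 0, 1 and 3 *Ptgs1* UMIs.

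Few of these genes were called between genotypes, which also differed in depth except in WT 5. In EHT *Egr1*, an immediate early gene also induced by flow, was at 2.45 ± 1.28 CPM in Mf/f;Cre (SD, n = 3), from 4, 1 and 1 UMIs. In WT it was at 23.6 ± 9.58 CPM (n = 5), and the log2 change in Mf/f;Cre was −3.05 ± 0.55 (SE, edgeR adjusted p = 0.055). In Myeloid cells *S1pr1* (−1.19 ± 0.23, adjusted p = 0.0321), *Gnas* (−0.59 ± 0.13, adjusted p = 0.0517), *Ramp1* (−0.75 ± 0.18, adjusted p = 0.068) and *Atf3* (−2.30 ± 0.57, adjusted p = 0.0789) were lower in Mf/f;Cre. For *S1pr1*, *Gnas* and *Ramp1* WT 5 was the lowest WT library, at 20.6, 578 and 51.6 CPM, though above every Mf/f;Cre library. For *Atf3* WT 5, at 6.34 CPM, lay inside the Mf/f;Cre range of 5.31 to 9.69, and WT 1 to WT 4 were at 29.1 to 65.6. No gene of the lists was called in aEC, pre-HE or vEC. Over all genes 0.0577% were called higher and 0.0692% lower in EHT, and 1.48% higher and 1.78% lower in Myeloid cells. With depth as a covariate, 2 genes in place of 11 were called in EHT and 10 in place of 374 in Myeloid cells.

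Lastly, each member was set beside the genes whose levels followed it most closely over 49 WT sums of a library and cluster, among 7863 genes, by Pearson correlation of log2(CPM + 1). These sums share libraries and depth, so the values are descriptions. *Ramp2* ran with the endothelial genes *Plvap* (r = 0.995), *Ecscr* (0.994) and *Cdh5* (0.989), and *Nos3* with *Pxdn* (0.984), *Parva* and *Prex2*. *Ece1* ran with *Eng* (0.976) and *Thbd* with *Fblim1* (0.946). *Edn1* ran with *Gata6* (0.944) and *Sost* (0.939), and *Calcrl* with *Cpxm1* (0.958), *Pam* (0.943) and *Procr* (0.937), the last a surface marker of hemogenic cells. *Klf2* ran with *Skil* (0.952), and *Klf4* with *Klf2* itself (0.897). *Ramp3* ran with *Dcbld1* (0.963) and *Adm* most with *Arpc3* (0.814). Between members, *Edn1* and *Calcrl* gave 0.909, *Nos3* and *Ramp2* 0.974, *Adm* and *Ramp3* 0.759, and *Calcrl* and *Ramp3* 0.137.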

How the data were processed

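RNA of single cells was counted with Cell Ranger 3.0.2 on mm10, per the submitters' processing notes, and the authors deposited raw UMI counts per gene and cell, with a cluster and library for each of 15168 cells; no cell held fewer than 2001 genes. Counts were summed per library and cluster (at least 10 cells) and tested with edgeR 4.0.16 quasi-likelihood fits in R 4.3.3 (filterByExpr, TMM, Benjamini-Hochberg adjustment over all genes, call at an adjusted p under 0.1), with library as a block between clusters and none between genotypes. All 8 libraries had a group in the labels. Ratios of pooled counts carry exact 95% intervals for counting error, and a count of 0 allows 3 counts. Scrublet (30 components) marked 83 cells (0.547%), which were kept. The fits were tested on simulated data. Members and gene lists were chosen with earlier results of these data known. Besides the members, up to 2 called genes per list and direction with the largest change and a mean log2 CPM of at least 4 were named, and *Bnip3*, *Runx1*, *Acta2* and other markers as checks. Genes of like pattern were the 3 of highest correlation among genes of at least 10 CPM. Promoters and positions are from RefSeq, GRCm38.p6. Alternatives were DESeq2 1.42.0, RLE scaling, no filter, a threshold of 0.05, at least 20 cells per sum, thinning to 5000 or 3000 UMIs, no doublets, each library left out, the block, and depth as a covariate. Python 3.11.15, numpy 2.4.6, pandas 2.3.3 and scipy 1.17.1 were used.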

Additional observations from a re-analysis of the deposited data

Results flagged for a closer look

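In groups of 5 WT libraries, 40 combinations of member and cluster were examined for a library far from the others (gap to the nearest over the whole range above 0.71). There were 5 such combinations, and in each the library was WT 4. The cutoff marks about 1 in 20 groups by chance only where values are independent and normally distributed. These groups share the same 5 libraries, and a single value above 0 beside 0 in the other 4 always passes. The number marked was therefore not read against that rate. *Edn1* was at 79.79 CPM in the aEC of WT 4, where the next library was at 32.79, and at 79.79 CPM in its vEC (4290 UMIs, against 539 in aEC), where the next was at 37.48. *Adm* was at 56.14 CPM in the pre-HE of WT 4 and at 0 in the other 4 libraries. *Adm* was at 7.038 CPM in its EHT cells (18 UMIs), where the next was at 0.8359, and at 23.14 CPM in its vEC, where the next was at 7.619.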

How the results depend on the processing

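Of 636 values of steps between clusters under an alternative, 617 kept their direction and side of the threshold, 13 lost the call, 3 gained it and 3 changed sign. For *Edn1* and *Calcrl* from aEC to pre-HE in WT the log2 change ranged from 3.85 to 4.40 and from 3.28 to 3.73, and for *Adm* from −9.09 to −1.47 (adjusted p up to 0.0586). Between aEC and vEC *Klf2* was −0.01 with no filter and −0.0025 to 0.10 with a library left out (called only without WT 5, adjusted p = 0.0892), and *Edn1* −0.24 to 0.03 with a library left out, 0.03 without WT 1; it was called when thinned (−0.40) and with no filter (−0.17). *Nos3* was not called there by DESeq2, with no filter, thinned (adjusted p = 0.41), or without WT 1, WT 2 or WT 4. Thinned to 3000 UMIs, 5 members in place of 8 had a lower share in EHT than in aEC in 5 of 5 libraries. *Klf2* had a higher share in pre-HE than in aEC in 5 of 5 libraries only at 5000 UMIs.

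Genotype was less settled: 17 of 162 values gained a call and 10 changed sign. Members called numbered 0 to 1 in aEC and in pre-HE, 0 to 2 in vEC and 0 to 2 in Myeloid cells with a library left out, the highest each time without WT 5. In vEC DESeq2 and no filter gave 1 each, and in Myeloid cells thinning gave 1. Replicate numbers did not pair the libraries (correlations of same-numbered deviations −0.164 to 0.27). The replicate block gave 2 members in aEC, 1 in pre-HE, 3 in vEC and 3 in Myeloid cells, and over all genes 746, 135, 2380 and 1360 calls in place of 0, 18, 2 and 374; it turned *Adm* in vEC to 1.21, and leaving out a library gave −0.40 to 0.80, 0.80 without WT 4. With depth as a covariate *Calcrl* was 0.34 in aEC and 0.05 in pre-HE, and in Myeloid cells *Klf2* was 0.21 and *Ramp2* −0.84. With WT 5 as the only WT library *Adm* was −0.13 and *Calcrl* 0.35 in aEC, and *Klf2* 0.32 and *Ramp2* −0.78 in Myeloid cells. The difference of steps for *Adm* was 0.38 by DESeq2 and −2.94 to 4.51 with a library left out, 4.51 without WT 4. The causes were not tested. Counts were too low to test *Adm* and *Ramp3* between pre-HE and EHT, and *Thbd* between aEC and pre-HE in Mf/f;Cre.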
